A study of Mus musculus with 384 samples.

Results

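The Hox genes are the 39 mouse genes whose symbol is Hoxa, Hoxb, Hoxc or Hoxd followed only by a number, out of 49585 genes counted in single cells sorted from the embryonic and adult mammary gland. They were taken by that rule from the table of read counts and not by any measured value. Their levels were compared across 3 sort gates on 1 plate. The embryonic gate held cells from the skin, mammary buds included, of female Lgr5-EGFP-IRES-CreER embryos at embryonic day 14, sorted as CD49f Hi/Lgr5 Hi. In this allele a green fluorescent protein and a Cre recombinase are driven by Lgr5, whose product is a receptor in Wnt signalling, so the gate takes cells in which that gene is active. The basal gate (CD24+CD29Hi) and the luminal gate (CD24+CD29Lo) held cells of adult Rosa-tdTomato glands, whose age is not given in the sources used here. All gates were sorted without cells carrying CD45, CD31 or CD140a. Genotype, age and gate change together, so they cannot be told apart, and nothing names the animals: a gate is therefore 1 sample, its cells do not stand for animals, and differences between gates are given without a test or a replicate check.

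Hox genes encode homeodomain transcription factors that give cells their position along the head-to-tail axis. In each cluster the genes lie in the order of their paralogue number, and low numbers are switched on earlier and nearer the head than high numbers. Hox proteins bind DNA with partners of the TALE class such as Pbx and Meis, and retinoic acid is a known inducer of low-numbered genes. In the mammary gland, mice without the paralogue 9 genes of the Hoxa, Hoxb and Hoxd clusters cannot nurse their young, and Hoxc6 and Hoxc8 are known from the trunk skin in which the buds form. The mouse clusters lie on chromosome 6 (Hoxa, 11 genes), chromosome 11 (Hoxb, 96194316 to 96368256, 10 genes), chromosome 15 (Hoxc, 102921103 to 103036852, 9 genes) and chromosome 2 (Hoxd, 74668310 to 74765142, 9 genes) of GRCm38.

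The sequences before the starts of Hoxb4, Hoxd8 and Hoxa10 are shown because these genes had very different distributions among embryonic cells, described further on. RefSeq windows on GRCm38.p6 were found for 22 of the 39 genes, 24 windows in all. Each sequence is the 250 bases before a RefSeq start, on the gene's strand, with no annotated exon. Those of Hoxb4 and Hoxd8 end at the first base before the gene, and that of Hoxa10 lies inside the gene between its annotated exons, before a start further along. Capitals mark TAAT, the core that homeodomains recognise, and TATAAA, the TATA box, each on either strand.
Hoxb4, chr11:96318017-96318266, + strand: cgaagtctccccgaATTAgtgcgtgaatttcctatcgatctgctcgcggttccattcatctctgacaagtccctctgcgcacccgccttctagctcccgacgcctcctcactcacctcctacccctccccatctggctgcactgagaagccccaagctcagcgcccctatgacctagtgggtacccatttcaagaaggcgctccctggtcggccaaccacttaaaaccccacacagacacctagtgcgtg
Hoxd8, chr2:74704365-74704614, + strand: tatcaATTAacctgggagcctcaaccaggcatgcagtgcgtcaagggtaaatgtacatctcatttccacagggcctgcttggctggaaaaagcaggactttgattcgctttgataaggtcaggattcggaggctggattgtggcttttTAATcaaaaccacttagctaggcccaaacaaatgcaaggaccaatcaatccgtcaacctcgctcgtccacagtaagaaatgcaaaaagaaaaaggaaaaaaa
Hoxa10, chr6:52234940-52235189, - strand: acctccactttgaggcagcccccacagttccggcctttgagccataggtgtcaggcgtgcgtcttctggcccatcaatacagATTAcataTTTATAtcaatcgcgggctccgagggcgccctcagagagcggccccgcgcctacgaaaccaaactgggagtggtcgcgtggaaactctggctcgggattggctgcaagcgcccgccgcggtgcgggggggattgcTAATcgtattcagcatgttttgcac
The Hoxb4 window held TAAT at 1 place, and those of Hoxd8 and Hoxa10 held it at 2 places each. Over all RefSeq windows of 250 bases, 54.9% of 32841 held TAAT, against 75% of the 24 Hox windows. TATAAA was in the Hoxa10 window shown, in 16.7% of Hox windows and in 12.4% of all. The Pbx-Hox pair TGATNNAT was in none of the windows shown, in 16.7% of Hox windows and in 7.69% of all, and the Meis core TGACAG was also in none of them, with 8.33% and 15.9%. CpG dinucleotides numbered 14 before Hoxb4, 6 before Hoxd8 and 20 before Hoxa10, with a median of 12.5 over the Hox windows and 6 over all. A match describes letters in the window and not a bound site.

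Wells of single cells with at least 50000 reads on genes were kept, which left out 10 embryonic, 10 basal and 9 luminal wells. Their median depth was 697578, 450196 and 525176 reads, with 5515, 2798 and 3643 genes read in the median well, so Hox counts per well are also given at an equal depth. By rank correlation of expression, all kept wells but 1 embryonic, 10 basal and 3 luminal matched the 50-cell well of their own gate best. In the 4 empty wells 34 to 563 reads were found, none of a Hox gene. Marker genes of the labelled types were present: summed basal markers had a median of 12059 CPM (reads per 1000000 gene reads) per basal well against 1.02 per luminal well, and luminal markers 12972 against 149. The median epithelial sum was 2834 CPM in the embryonic gate, 3338 in the basal and 11147 in the luminal. Medians of the endothelial, immune and muscle sums were 0 CPM in every gate, and those of the Schwann or neural crest markers were 5.02, 25 and 61.1 CPM. A median of 0 does not mean that no well held such transcripts. The endothelial sum reached 8609.9 CPM in a basal well, and the endothelial genes Kdr and Emcn were read in 10 and 5 basal wells. The basal 50-cell well had 58 reads of Cdh5, another such gene, and 44 of Kdr. Fibroblast or mesenchyme markers, cells of a kind that often bears the CD140a excluded by the sort, had a median of 247 CPM in embryonic, 1673 in basal and 0 in luminal wells. In the basal gate this sum includes Postn and Dcn, which were read in 80 and 61 basal wells.

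Hox reads were mostly embryonic. Of the 39 genes, 31 had a read in a kept single well: 30 in the embryonic gate, 14 in the basal and 9 in the luminal. Over all genes 43.5%, 35.7% and 37.8% had a read in these gates. The summed level of all Hox genes was 146 CPM of gene reads in the embryonic gate (exact Poisson 95% interval 144 to 149), 19.4 in the basal (18.2 to 20.6) and 4.49 in the luminal (4.0 to 5.02). Such intervals cover counting error only, and reads copied by PCR are not independent molecules. In the embryonic gate 10 of the 39 Hox genes reached 5 CPM, in the basal gate 1 and in the luminal gate none. Over all genes 23.2%, 21.4% and 20.2% reached that level in these gates. A sum cannot tell fewer cells that carry a transcript from less transcript per cell, which is why wells with a read are counted beside each level. Among the members without a read were the paralogue 13 genes Hoxa13, Hoxb13 and Hoxd13, and Hoxa11, Hoxc12 and Hoxd12. Of the 30 genes read in embryonic wells, 14 had no read in any adult single well, 46.7% against 15.4% of all genes with an embryonic read.

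**Figure D1:**
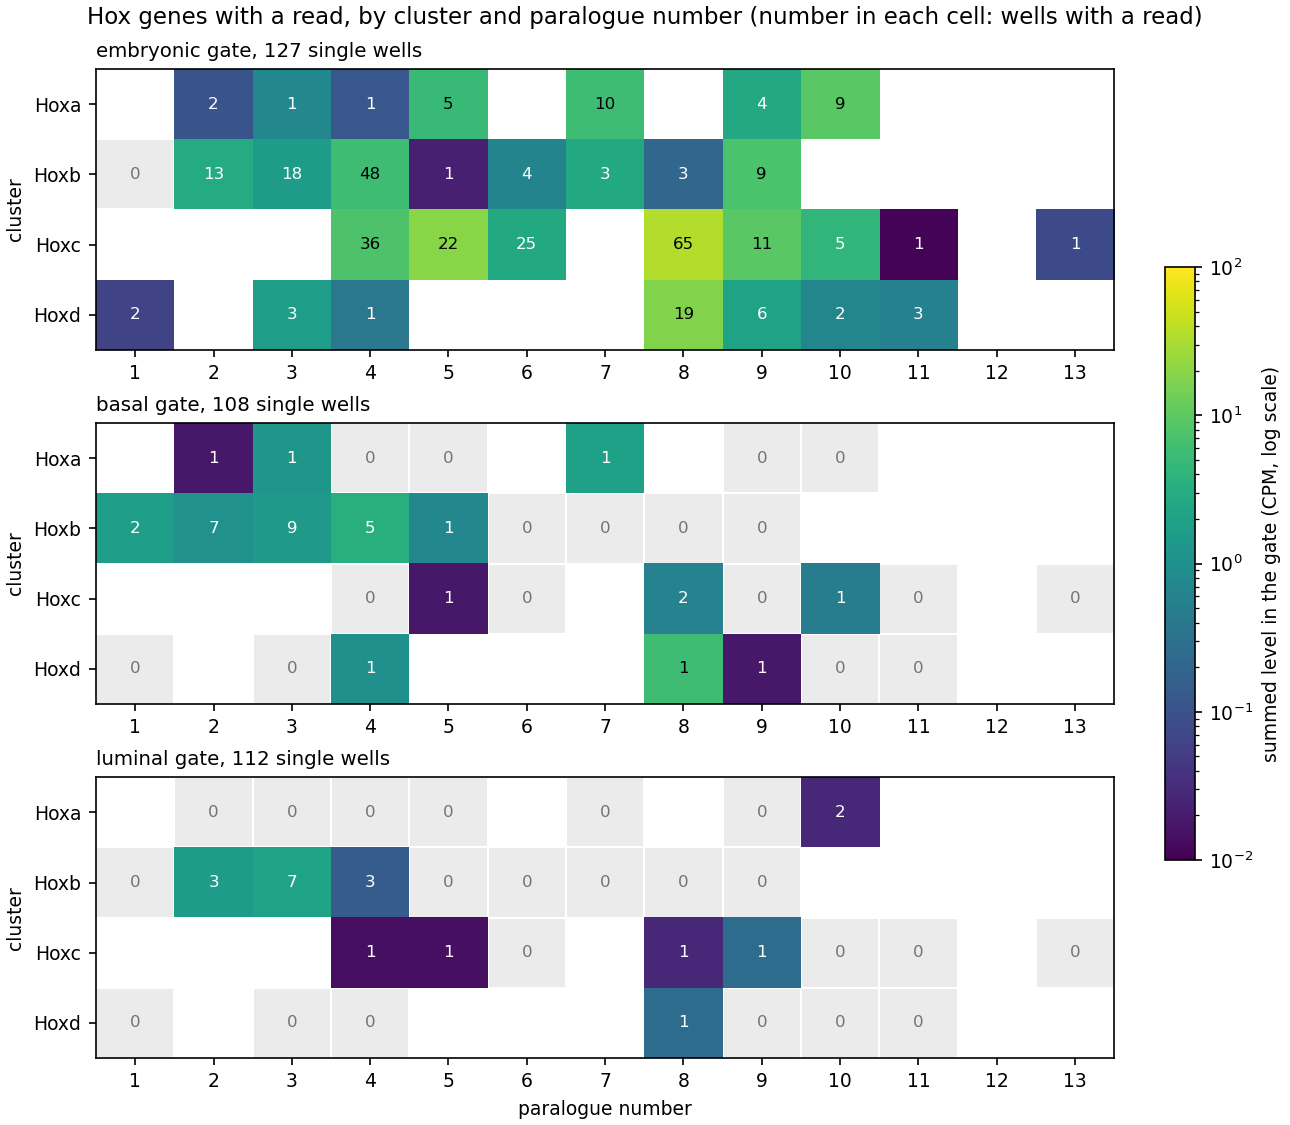
Summed level of each Hox gene in CPM (colour, log scale) by cluster (rows) and paralogue number (columns) in the embryonic, basal and luminal gates. The number in a cell is the number of single wells with a read, grey cells with 0 had none, and white places hold no gene or one without a read in any gate: the Hoxc row of the embryonic gate runs from Hoxc4 to Hoxc13 with a peak of 65 wells at Hoxc8, while in the adult gates Hoxb2 to Hoxb4 are read in the most wells.

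A gene counted as higher in a gate when its level, after adding 1 CPM, was at least 2-fold that of the other gate and at least 5 CPM. By this rule 9 of the 39 Hox genes exceeded their basal level in the embryonic gate (23.1%, against 8.72% of all genes) and 0 were lower (against 5.01%). Against the luminal gate 10 were higher (25.6%, against 10.1% of all genes) and 0 lower (against 4.50%). Among genes with a read in any gate the shares of all genes were 17.9% and 20.6% higher, against 29% and 32.3% of the 31 Hox genes, and 10.3% and 9.21% lower, against 0 Hox genes. The median log2 ratio over the 39 genes was 0.59 against basal and 0.65 against luminal, where it was 0.00 over all genes. Between the adult gates 1 Hox gene was higher in basal (against 6.78% of all genes, and 13.9% of those read) and 0 lower (against 5.11% and 10.5%). These are counts without a test. The counts did not hold in every set of wells: without embryonic wells that carried fibroblast markers 5 rather than 9 genes were higher than in basal, without such wells in any gate 6, in the wells of 50 cells 3, and in the plate rows that hold both gates 4 (with 8 embryonic wells).

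The Hoxc cluster gave 53.8% of embryonic Hox reads, at 78.7 CPM (76.9 to 80.6), and 95 embryonic wells had a read of it (74.8%, exact Clopper-Pearson interval 66.3% to 82.1%). The other clusters were at 23.6 CPM for Hoxa (25 wells), 21.1 for Hoxb (66 wells) and 22.8 for Hoxd (22 wells). Hoxb was thus read in far more wells than Hoxa or Hoxd at a similar sum. By position in the cluster, paralogues 4 to 8 gave 70.1% of embryonic Hox reads (102.5 CPM, 83.5% of wells), paralogues 9 to 13 gave 25.1% (36.6 CPM, 26 wells) and paralogues 1 to 3 gave 4.84% (7.07 CPM, 27 wells). In the luminal gate paralogues 1 to 3 gave 83.1% of 307 Hox reads.

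Hoxc8, a central gene of its cluster that is active in the thoracic body wall, was the most abundant Hox transcript of the embryonic gate on either scale, at 34.8 CPM (33.6 to 36) or 12.3 CPM per kb of exon. It was read in 65 embryonic wells (51.2%, 42.2% to 60.1%), where its level ran from 0.901 CPM in the lowest to 13.9 in the median and 723 in the highest well, and the other wells had none. In the basal gate 2 wells had a read, at 5.21 and 50.5 CPM, and in the luminal gate 1 well, at 5.36 CPM. The adult wells with a read thus fell inside the embryonic range, and the gates differed mainly in how many wells had one. However, the basal well at 50.5 CPM and the luminal well matched the embryonic 50-cell well best. Without wells matching another gate Hoxc8 was at 0.0216 CPM in basal and 0 CPM in luminal wells, so its adult level rests on few reads. The ratio of summed levels was 59.3 (interval 41.9 to 86.8) over basal, where 31 of the 32 reads came from 1 well, and 1188 (329 to 9817) over luminal, where 2 reads were found. At an equal depth of 50000 reads 27.6% of embryonic wells still had a read.

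Hoxc4, Hoxc5 and Hoxc6, the neighbours of Hoxc8 on its 3' side, were also read in many embryonic wells and hardly in adult ones. Hoxc5 was at 19.6 CPM in 22 wells, which ran from 0.627 through a median of 47.3 to 596 CPM, and at 1 read in each adult gate. Reads of Hoxc5 and Hoxc10 may be shared, since 5.37% of the exon length of Hoxc5 overlaps Hoxc10. Hoxc4 was at 7.68 CPM in 36 wells (0.918, 12.3 and 241 CPM in the lowest, median and highest), with no basal and 1 luminal read, at least 139.7-fold higher than basal when the basal gate is set to 3 reads. Hoxc6 was at 2.71 CPM, under the level of a call, in 25 wells (0.637, 5.65 and 95 CPM), with no adult read. Hoxc5 was read in 3 of the 63 embryonic wells below the median depth and in 19 of the 64 others. Hoxc6 was read in 13 and 12 of them and Hoxc8 in 33 and 32. At an equal depth of 50000 reads 15 wells still had a read of Hoxc5, and the cause of its split was not tested.

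Higher-numbered Hoxc genes were rarer. Hoxc9, whose product is known for patterning of thoracic segments, was at 9.47 CPM in 11 embryonic wells (1.61, 54 and 722 CPM), with no basal read and 18 reads from 1 luminal well. Hoxc10 was at 4.37 CPM in 5 wells, Hoxc11 had 1 read and Hoxc13, a gene of hair follicles and nails, had 7 reads in 1 well. Hoxc9 was thus read in fewer wells than Hoxc8, at a higher median in the wells with a read. In 35 embryonic wells none of Hoxc4, Hoxc5, Hoxc6 and Hoxc8 had a read, in 51 wells 1 of them, in 29 wells 2, in 9 wells 3 and in 3 wells all 4. Hoxc6 and Hoxc8 were read together in 17 wells, which are 68% of Hoxc6 wells and 26.2% of Hoxc8 wells, and the product of their shares would give 12.8 wells. For Hoxc4 and Hoxc8 the wells were 22 against 18.4, and for Hoxc5 and Hoxc8 13 against 11.3. They were 10 against 7.09 for Hoxc4 and Hoxc6, 7 against 6.24 for Hoxc4 and Hoxc5, and 5 against 4.33 for Hoxc5 and Hoxc6.

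Within Hoxb the reads divided by paralogue number. Hoxb4, known from blood stem cells and the hindbrain, was read in 48 embryonic wells (37.8%), the most after Hoxc8, but at low levels of 0.544, 5.85 and 113.9 CPM in the lowest, median and highest, which sum to 5.63 CPM. Its basal level was 3.39 CPM in 5 wells (5.70 to 222 CPM), a ratio of 1.66 (1.40 to 1.97) that was not called, and its luminal level 0.146 CPM in 3 wells, a ratio of 38.5 (20.7 to 80.7). Hoxb2 and Hoxb3, genes of the hindbrain in the embryo, stayed under 5 CPM in every gate, so the rule could not call them. Hoxb3 was at 1.63 CPM in 18 embryonic, 1.48 in 9 basal and 2.08 in 7 luminal wells, with medians of 7.57, 12.1 and 13.1 CPM in the wells with a read, and the 3 ranges overlapped. Hoxb2 was at 2.85, 1.06 and 1.65 CPM in 13, 7 and 3 wells, a ratio of 2.68 (2.01 to 3.62) over basal and 1.72 (1.37 to 2.17) over luminal. Of the exons of Hoxb3 52.9%, and of Hoxb2 27.3%, overlap the antisense gene Hoxb3os, and the strand mode of the counting is not known here, so their reads may belong to it. Hoxb3os itself was read in 23 embryonic, 10 basal and 15 luminal wells. Hoxb9 was at 7.40 CPM in 9 embryonic wells (3.17, 25.5 and 373 CPM) and had no read in either adult gate, at least 134.5-fold higher than basal and 168-fold higher than luminal at 3 reads. The remaining Hoxb genes with an embryonic read, Hoxb5, Hoxb6, Hoxb7 and Hoxb8, were read in 1, 4, 3 and 3 wells.

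**Figure D2:**
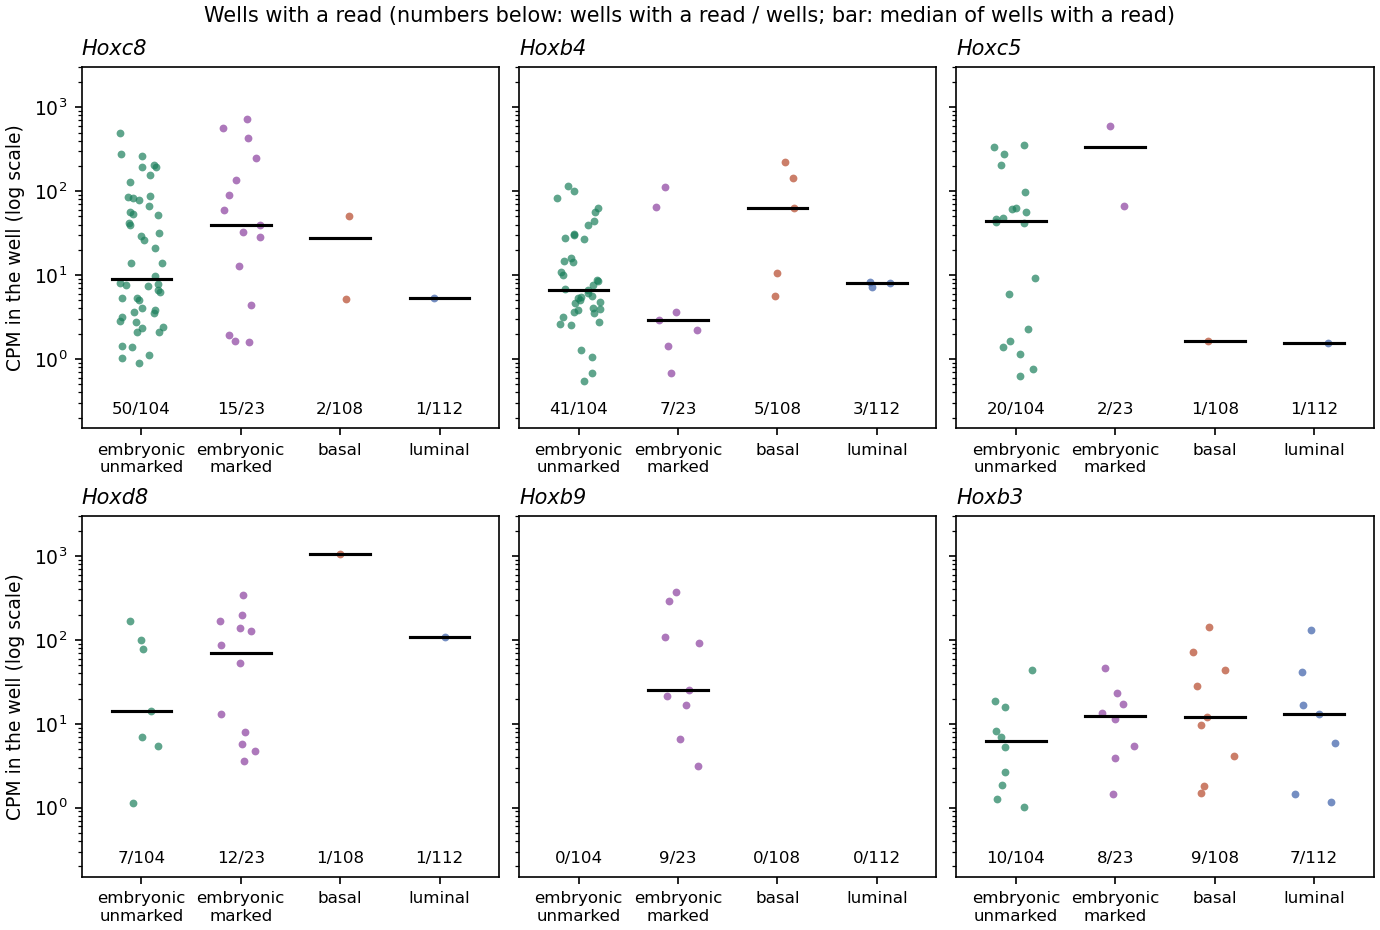
Level in CPM (y axis, log scale) of 6 Hox genes in each single well with a read, for unmarked and marked embryonic, basal and luminal wells. Black bars are medians of the wells with a read and the numbers below give wells with a read of all wells: Hoxc8 and Hoxb4 appear in many unmarked wells (50 and 41 wells), Hoxb9 in 9 of 23 marked wells and nowhere else, and Hoxb3 in all classes.

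Hoxd8 led its cluster at 17.3 CPM, or 6.30 per kb of exon, close to the 6.35 of Hoxc5. It was read in 19 embryonic wells (1.1, 52.9 and 339 CPM), in 1 basal well at 1062 CPM and in 1 luminal well at 109.5 CPM. The basal level of 5.63 CPM therefore came from 1 well, and this was the call of a Hox gene between the adult gates. Without that well the basal level was 0, and in the wells of 50 cells the order was the other way, with 9 embryonic, 12 basal and 1 luminal reads. Of the exon length of Hoxd3 62.3%, and of Hoxd4 52.3%, overlaps other genes on the same strand, each other included. Both are therefore uncertain as separate genes, at 1.68 and 0.389 CPM in 3 and 1 embryonic wells. Hoxd9, Hoxd10 and Hoxd11 were read in 6, 2 and 3 embryonic wells, at 2.11, 0.689 and 0.567 CPM, and Hoxd1 was read in 2 embryonic wells.

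In the Hoxa cluster 1 well often gave most of the reads of a gene. Hoxa10, a gene of the uterus and hind trunk, was at 9.31 CPM in 9 embryonic wells (2.53, 123.9 and 594 CPM), at no basal read and 2 luminal reads. Hoxa7 was at 5.69 CPM in 10 wells, of which 1 gave 65.4% of the reads, and Hoxa5, which is known from the developing lung, was at 5.00 CPM in 5 wells, of which 1 gave 72.9%. Without the richest well of each gene, Hoxa5, Hoxa7 and Hoxb9 were no longer called against the basal gate and 6 of the 9 genes stayed: Hoxa10, Hoxc4, Hoxc5, Hoxc8, Hoxc9 and Hoxd8. In the basal gate Hoxa7 was read in 1 well, at 116.8 CPM, inside the embryonic range of 1.42 to 459 CPM. Hoxa9 gave 223 of its 237 reads in 1 embryonic well, and Hoxa2, Hoxa3 and Hoxa4 were read in 2, 1 and 1 wells.

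Most adult wells had no Hox read at all. The number of Hox genes with a read per well had a median of 2 in the embryonic gate (range 0 to 16) and of 0 in the basal (0 to 5) and luminal (0 to 3) gates. At least 1 Hox gene was read in 87.4% of embryonic wells (80.3% to 92.6%), 26 basal wells (24.1%, 16.4% to 33.3%) and 17 luminal wells (15.2%, 9.10% to 23.2%). At 50000 reads per well these shares were 63.8%, 14.8% and 6.25%, in the same order. The basal well richest in Hox genes held 5 of them, among them all 307 Hoxd8 reads of the gate, 71 of Hoxa3 and 27 of Hoxc10. That well had reads of 5 of 10 fibroblast markers with a sum of 6014 CPM, 0 reads of the 7 epithelial markers and 3.46 CPM of basal markers, where the median of the gate was 12059. The luminal well richest in Hox genes had 3 and matched the embryonic 50-cell well. So did the luminal well with 2 Hoxc8 and 18 Hoxc9 reads and the basal well with 31 Hoxc8 reads. The Hox genes read in the most adult wells were Hoxb2, Hoxb3 and Hoxb4, in 7, 9 and 5 basal and 3, 7 and 3 luminal wells. Hoxb1 was the member read in adult wells alone, with 93 reads in 2 basal wells, of which 1 gave 92. Hoxb5 and Hoxd4 had 40 and 56 basal reads, each in 1 well.

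**Figure D3:**
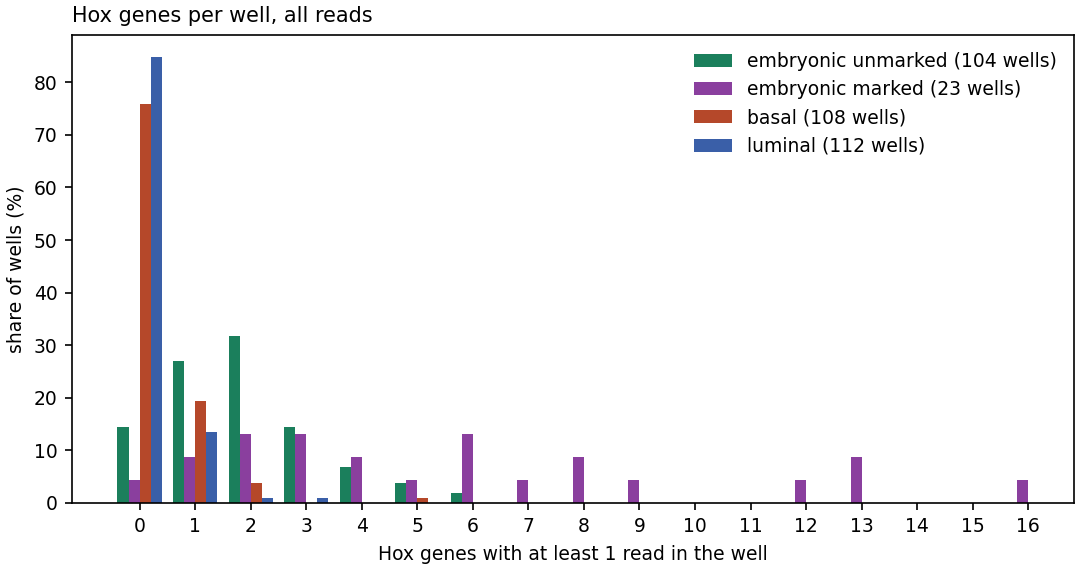
Share of wells in percent (y axis) by the number of Hox genes with at least 1 read (x axis) for unmarked embryonic, marked embryonic, basal and luminal wells. Basal and luminal wells pile up at 0, unmarked embryonic wells reach at most 6 genes, and marked wells reach 16.

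The highest paralogue number read in each well was also taken. More Hox genes read in a well make a high number likelier, and position along the body was not tested. The highest number was 8 in 53 embryonic wells (41.7%), 4 in 17 and 9 or more in 26 (20.5%, 13.8% to 28.5%). Of the wells defined further on as carrying fibroblast markers it was 9 or more in 65.2%, and of the other embryonic wells in 10.6%. The median number of Hox genes read was 5 in the former and 2 in the latter. In the basal gate the highest paralogue number was 9 or more in 2 wells and in the luminal gate in 3.

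Some embryonic wells carried fibroblast transcripts, and these had more Hox reads, from more Hox genes, than the rest. Wells with at least 3 of 10 fibroblast or mesenchyme markers, each at 5 reads or more after thinning to 50000, are called marked. They are 23 embryonic wells (18.1%), and the others are called unmarked. The division is a range and not a cell type, since 17 wells had 2 markers and 5 had 3, and thinning decides for some of them. The summed fibroblast level ran from 536 through a median of 13936 to 93976 CPM in marked wells and from 0 through 192 to 1439.7 CPM in unmarked wells, with all 10 markers read in both. The medians of the marked wells were lower for epithelial markers (1066 against 2997 CPM), basal markers (406 against 1226) and luminal markers (6.08 against 532). Immune and muscle markers had no read in marked wells. Depth was alike, with medians of 661690 and 726349 reads and 5604 and 5512.5 genes. In the basal gate 9 wells met the same rule, of which 2 had a Hox read (22.2%, against 24.2% of the other basal wells), and in the luminal gate none did. The summed Hox level of these 9 basal wells was 83 CPM, all from the 2 wells, against 12.4 CPM in the other basal wells. Pdgfra, which encodes the CD140a that the sort excluded, was read in 15 marked and 9 unmarked wells.

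The summed Hox level was 422 CPM in marked and 83.8 CPM in unmarked wells, and the median number of Hox genes per well 5 against 2. By the 2-fold rule 13 Hox genes were higher in marked wells (33.3%, against 4.50% of all genes and 10.4% of those with an embryonic read) and 2 lower (5.13%, against 6.07% and 14%). Of the 30 genes, 14 were read in marked wells and in no unmarked one (46.7%, against 4.03% of all genes with an embryonic read), and 1, Hoxc13, in unmarked wells alone (3.33%, against 25.3%). The wells were not replicated by embryo, so these are descriptions without a test, and whether the markers and the Hox reads came from the same cell was not tested.

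By position in the cluster, the levels in marked and unmarked wells lay furthest apart, as a ratio, at both ends, where single wells weighed heavily. Paralogues 1 to 3 were at 30.4 against 1.80 CPM (in 52.2% and 14.4% of wells), paralogues 4 to 8 at 228 against 74.1 CPM (91.3% and 81.7%), and paralogues 9 to 13 at 164 against 7.88 CPM (65.2% and 10.6%). Of the low-numbered genes, Hoxb2 was at 12.2 against 0.723 CPM, a ratio of 16.9 (12.5 to 23.4), in 7 and 6 wells, and Hoxb3 was at 4.10 against 1.08 CPM, a ratio of 3.81 (2.71 to 5.33), in 8 and 10 wells. Of the others, Hoxb9 was read in 9 of 23 marked wells (39.1%, 19.7% to 61.5%) and in no unmarked well, which allows a share of up to 2.88% at 3 wells (3.48% by the exact interval), and its level of 40.1 CPM was at least 979.9-fold higher at 3 reads. Hoxa10 was at 49.4 against 0.245 CPM, a ratio of 201 (126.5 to 341), in 6 and 3 wells. Hoxd8 was at 68.9 against 5.62 CPM, a ratio of 12.3 (10.9 to 13.8), in 12 and 7 wells. Hoxc9 was at 31.3 against 4.53 CPM in 6 and 5 wells, and Hoxc10 at 14 against 2.18 CPM in 4 and 1 wells. Hoxa9, Hoxb7 and Hoxd3 were read in 4, 3 and 3 marked wells and in no unmarked well. Paralogues 9 to 13 together gave 38.8% of Hox reads in marked wells and 9.41% in unmarked wells.

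**Figure D4:**
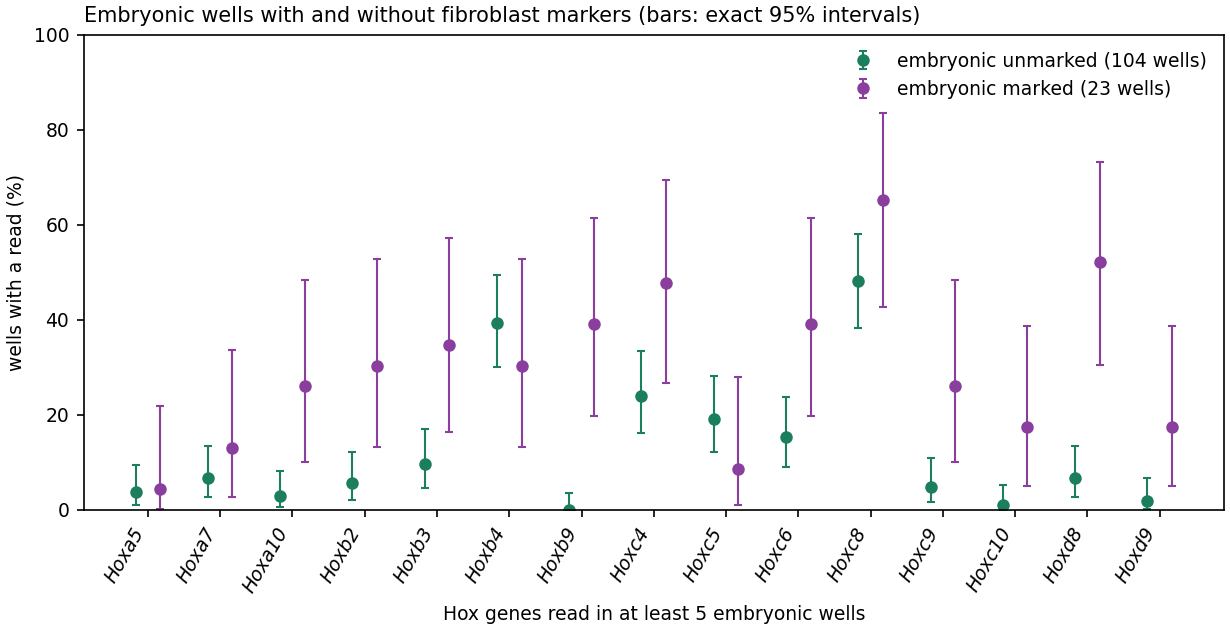
Share of marked and unmarked embryonic wells with a read in percent (y axis) for the Hox genes read in at least 5 embryonic wells (x axis), with exact 95% intervals. Hoxb9 and Hoxd8 are at 39.1% and 52.2% of marked wells against 0% and 6.73% of unmarked wells, while Hoxb4 and Hoxc5 are at 30.4% and 8.70% against 39.4% and 19.2%.

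Hoxb4 and Hoxc5 were nearer to even in level, while Hoxc8 was among the genes called higher in marked wells. Hoxb4 was at 5.61 CPM in marked and 5.63 CPM in unmarked wells, a ratio of 0.995 (0.786 to 1.25), in 7 and 41 wells. Hoxc8 was at 76.5 against 25.3 CPM, a ratio of 3.02 (2.81 to 3.24), but its share of wells was 65.2% (42.7% to 83.6%) against 48.1%, with overlapping intervals. Hoxc5 was at 30.8 against 17.1 CPM, a ratio of 1.80 (1.62 to 2.00), in 2 marked and 20 unmarked wells. Without the richest well of each class Hoxc5 was lower in marked wells, at 5.79 against 13.6 CPM, so its direction rests on 1 well. Hoxc4 and Hoxc6 were at 15.3 against 5.96 CPM and 8.02 against 1.51 CPM, in 11 and 25 and in 9 and 16 wells. Hoxa5 and Hoxa7 were the pair called lower in marked wells, at 0.422 against 6.04 CPM and 0.844 against 6.79 CPM. Without the richest well of each class they were at 0 against 1.59 CPM and 0.394 against 2.25 CPM, and neither was called. They were read in 4.35% and 13% of marked and in 3.85% and 6.73% of unmarked wells. In unmarked wells by themselves the Hoxc cluster gave 67.7% of Hox reads and paralogues 4 to 8 gave 88.4%, and the genes at 5 CPM and 2-fold over basal were Hoxa5, Hoxa7, Hoxc4, Hoxc5 and Hoxc8.

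With the number of fibroblast markers, the wells with a Hoxd8 read went from 3 of 43 at 0 markers and 4 of 61 at 1 or 2 to 2 of 10 at 3 to 5 and 10 of 13 at 6 or more. Hoxb9 was read in 0, 0, 1 and 8 of the same wells, and Hoxc8 in 26, 24, 5 and 10. All 13 wells with 6 or more markers had a Hox read, with a median of 8 Hox genes. The well with the most, 16 genes, had 465 Hoxd8, 223 Hoxa9, 92 Hoxc5 and 35 Hoxb9 reads and 0.729 CPM of the epithelial markers. Hoxb4 followed no such order, with 25.6%, 49.2%, 30% and 30.8% of the same wells.

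The 3 wells of 50 cells gave a separate look at few reads, with 79 Hox reads in the embryonic, 14 in the basal and 1 in the luminal well. The embryonic well had 28 reads of Hoxc8, 24 of Hoxc5, 9 of Hoxd8 and 7 of Hoxc4, so that the Hoxc cluster gave 83.5% of them and paralogues 4 to 8 gave 93.7%. This well had no read of Hoxb9 or Hoxa10 and 2 of Hoxb4. Of the 14 basal reads 12 were Hoxd8, and the single luminal read was Hoxd8 too. The Hoxc8 level was 45 CPM in the embryonic 50-cell well and 34.8 CPM over single wells, and the adult 50-cell wells had no Hoxc read. Col3a1, a fibroblast marker, had 2237 reads in the embryonic 50-cell well, so cells with fibroblast transcripts were in that pool as well.

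Among the partners of Hox proteins, 5 of the 9 TALE genes were higher and 1 lower in embryonic than in basal cells (against 8.72% and 5.01% of all genes), with a median log2 ratio of 2.18. Against luminal 6 were higher and 0 lower (10.1% and 4.50% of all genes), also with a median of 2.18. Between the adult gates 4 were higher in basal and 0 lower (6.78% and 5.11% of all genes), with a median of 0.65. Meis1 was at 141, 30.3 and 19 CPM and Meis2 at 100.9, 0.697 and 0.219 CPM, in 84.3% and 72.4% of embryonic wells. Pbx3 was at 101.1, 16.3 and 2.28 CPM. The gene lower in embryonic cells was Pknox2, at 0.478 against 49.1 CPM. Meis2 was at 182 CPM in marked and 82.6 CPM in unmarked wells. The wells of 50 cells, at 621792 embryonic and 601969 basal gene reads, did not repeat all of these differences. Pbx3 had 17 embryonic and 28 basal reads there, and Pbx2 had 14 and 29. Meis2 had 39 and 20, much closer than in single wells, and Meis1 had no basal read.

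Set against the same shares of all genes, of 16 genes of the retinoic acid pathway 6 were higher and 2 lower in embryonic than in basal cells (median log2 ratio 0.74), 4 higher and 2 lower than in the luminal gate (0.24), and between basal and luminal 1 was higher and 2 lower (-0.11). Crabp1, which binds retinoic acid in the cell, was at 121.2 CPM in 73 embryonic wells and at 0 and 0.541 CPM in the basal and luminal gates. It too was higher in marked wells, at 506 against 34.2 CPM. The receptor Rara was at 62, 19.7 and 22.7 CPM. Rdh10, which acts in retinol metabolism, was lower in the embryonic gate, at 8.30 against 101.3 and 151 CPM. The synthetic enzymes Aldh1a1 and Aldh1a2 had no read in any gate, and Aldh1a3 was at 7.62, 0 and 33 CPM. None of the 6 ParaHox and Cdx genes, relatives and upstream regulators of Hox genes, had a read.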

How the data were processed

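A plate of 384 wells received single cells, pools of 50 cells or no cell, and was sequenced after oligo-dT priming with a Smart-seq2 protocol, per the labels' protocols. The authors deposited raw read counts per gene and well, 49585 gene rows and 92 spike-in rows. Per the submitters' processing notes the tools were cutadapt 1.13, HTSeq 0.6.0 and STAR 2.5.2b, and the build GRCm38. Annotation, options and strand mode were not given in the sources used here. Wells that received 1 cell numbered 137 (embryonic), 118 (basal) and 121 (luminal), of which 127, 108 and 112 had at least 50000 gene reads and were kept, 23 embryonic ones being marked and 104 unmarked. Symbols and exons came from GENCODE M21 (49326 rows matched, 5577 without the version, 259 unmatched). The well with conflicting labels entered no comparison. Some genes are counted in the totals but are not reported here by name.

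Reads were summed over kept wells of a gate and scaled to CPM of its gene reads, spike-ins left out. Log2 ratios used a prior of 1 CPM, and ratios in the text have none. Intervals are exact at 95% (Poisson, conditional binomial, Clopper-Pearson). Against 0 reads a ratio is a limit at 3 reads per gate or class. Equal-depth counts used 1 random thinning, and no doublet caller was run. Levels between genes are compared per kb of exon. Python 3.11.15, scipy 1.17.1, edgeR 4.0.16 and DESeq2 1.42.0 were used, the last pair for scaling alternatives alone.

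The Hox genes, the TALE, retinoic acid, ParaHox, flanking and non-coding lists, the markers, thresholds and alternatives were chosen with earlier results of these data known. Described in full were the 12 Hox genes highest by the mean of the 3 gate levels, any at least 2-fold apart in all comparisons, the highest-numbered at 5 CPM per cluster and gate, and those that change direction in wells of 50 cells; other members are given by counts of wells or levels. From each other list at most 4 members at 5 CPM were named per gate. The promoter windows, the division by fibroblast markers and the members singled out beside it were chosen after seeing the data.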

Additional observations from a re-analysis of the deposited data

How the results depend on the processing

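Hox genes higher in embryonic than in basal cells numbered 9. It became 15 without a minimum level, 1 at a minimum of 20 CPM, 3 in the wells of 50 cells, 5 without fibroblast-marked wells, also 5 without these and the wells that match another gate, and 4 in the plate rows holding both gates. The 10 over luminal became 16, 1 and 4 under the first 3 of these, 5 in shared rows and 6 without the richest well of each gene. The 1 higher in basal than luminal became 6 without a minimum and 0 at 20 CPM, with spike-in reads as total, without the richest well, in shared rows and without marked wells of any gate. Of the counts of 0 lower genes, 1 gene appeared below basal without a minimum. Higher in marked wells were 13 genes, 8 without the richest well and 20 without a minimum, and the 2 lower genes, Hoxa5 and Hoxa7, became 1 without the richest well, which was Hoxc5 instead, and 1 by the mean of per-well CPM, which was Hoxa7. These alternatives on marked wells were chosen after seeing the data.

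In shared rows log2 ratios reversed for Hoxa7 over basal (-1.41), Hoxc5 over luminal (-0.02) and Hoxd8, basal over luminal (-1.82, and -0.34 without marked wells of any gate). Ratios that were not called also changed sign there: Hoxb2 over basal (0.90 to -0.90) and luminal (0.54 to -1.45), Hoxb3 over basal (0.08 to -0.07) and luminal (-0.22 to 0.09), and, basal over luminal, Hoxb3 (-0.31 to 0.68), Hoxb4 (1.94 to -0.88) and Hoxc8 (0.62 to -0.08). Hoxd8 over basal was -0.44 in the wells of 50 cells and -0.20 without either kind of doubtful well. Fewer wells enter these settings, and the cause was not tested. Before 1 CPM is added, TMM moved the log2 ratio of every gene by -0.32 over basal and -0.47 over luminal, and spike-in totals by 1.34 and 0.51. Ratios with 1 CPM added moved by amounts that vary with the level. These scalings left 7 and 11 Hox genes higher than in basal. No paired analysis was possible because the results come from no test and the labels pair no wells. Depth limits absence: a gene without a read in a well may still be transcribed there.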

Other observations

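Genes beside the Hox clusters did not share one pattern. Of the 12 flanking genes 4 were higher and 0 lower in embryonic than in basal cells (against 8.72% and 5.01% of all genes), and 5 were higher and 2 lower than in the luminal gate (10.1% and 4.50%). In basal against luminal 2 were higher and 1 lower (6.78% and 5.11%), and the medians were 0.00. Cbx5, a heterochromatin protein gene next to Hoxc, was at 555, 54.2 and 46.6 CPM in the embryonic, basal and luminal gates. Skap2, next to Hoxa, was at 27.4, 5.39 and 69.1 CPM, and Mtx2, next to Hoxd, at 184, 70.0 and 45.4 CPM. In the wells of 50 cells the order over basal was kept for Cbx5 (218 embryonic reads) and not for the other genes called higher. Skap2 had 2 embryonic and 17 basal reads there, Lnpk 36 and 58, and Mtx2 had fewer embryonic (79) than basal reads. Evx1, Evx2 and Calcoco2 had no read in any gate. Mtx2 and Cbx5 were read in 64.6% and 95.3% of embryonic wells, more than any Hox gene.

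Of 17 listed non-coding RNAs of the clusters 16 were found in the table. The microRNA genes, Hotair, Hottip and Hoxa11os had no read in these oligo-dT libraries. By the 2-fold rule 1 was higher in the embryonic than in either adult gate and 0 lower, near the share over all genes (8.72% over basal, 10.1% over luminal): Hoxd3os1, at 5.16, 1.43 and 0 CPM. Between basal and luminal 0 were called. Haglr, a transcript of the Hoxd cluster, was read in 7 embryonic wells, 5 of them marked, and Hoxb3os in 23, of which 22 were unmarked.

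The well whose title names the luminal gate and whose sort label names the embryonic gate had 774060 gene reads, 0 Hox reads and 1 fibroblast marker.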
